A study of Mus musculus with 16 samples.

Results

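The cyclic AMP signalling genes described here are 70 of the 24063 genes in the deposited tables. They were chosen by a rule on gene symbols that uses no measured values, though with earlier results of these data known. The genes were ordered by the step of the pathway at which they act. The set holds 10 adenylyl cyclases (Adcy), 22 cyclic nucleotide phosphodiesterases (Pde), 6 subunits of protein kinase A (Prkac and Prkar), 3 inhibitor peptides of that kinase (Pki), 16 anchoring proteins named by the Akap symbol, 2 exchange factors that cyclic AMP activates directly (Rapgef3 and Rapgef4), 3 factors of the CREB and CREM kind, 5 membrane-bound Creb3 factors and 3 Crtc coactivators.

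In the pituitary corticotrope, corticotropin-releasing hormone acts through its receptor and a stimulatory G protein to raise cyclic AMP, which frees the catalytic subunits of protein kinase A from the regulatory ones. The kinase phosphorylates CREB, and the resulting transcription includes that of Pomc, the hormone precursor gene. Melanotropes, the other pituitary cells that make Pomc, carry the dopamine receptor Drd2, which acts through inhibitory G proteins to lower cyclic AMP. Phosphodiesterases destroy the messenger, and anchoring proteins hold the kinase close to its substrates.

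All groups were AtT-20 cells, which derive from a mouse tumour of corticotropes, and the labels name no ligand of these receptors. Pax7 cells, which express this melanotrope transcription factor, and Neo control cells were each sequenced in 2 libraries. Each of them is a single cell population, so Pax7 and other differences between the populations cannot be told apart. AtT-20 cells expressing ER-Pax7, in which Pax7 is joined to a portion of the oestrogen receptor and becomes active with 4-hydroxytamoxifen, were read at 0 h (no induction) and after 12, 24 and 96 h of that compound, in 3 libraries per time. No group without the fusion received the compound, and no uninduced group was read at 12, 24 or 96 h. Activated Pax7, the compound itself and time in culture therefore cannot be told apart. Whether replicates were separate cultures is not said in the labels; the spread behind each p-value is that between libraries and may be technical. In such bulk samples, fewer cells making a transcript and less transcript per cell cannot be told apart.

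Total RNA was depleted of ribosomal RNA and read as paired ends. The 12 ER-Pax7 libraries held 61.4 to 88.7 M counted read mates and are given in scaled exon reads, reads over a gene's exons brought to a common library total. The Pax7 and Neo libraries are given as FPKM over the whole gene body, introns included, rounded by the authors to the second decimal. Levels therefore cannot be compared between the tables, and differences between the systems were not tested. Pax7 itself read 2.39 and 2.38 FPKM in the Pax7 libraries, against 0 and 0.01 FPKM in the Neo libraries, and over the ER-Pax7 libraries 1653 to 1911 scaled exon reads. All 7 corticotrope markers examined were above 0 in every group, whereas Drd2 was listed at 0 in every group other than 12 h, where a single library held a trace. The melanotrope marker Pcsk2 rose by 1.46 at 96 h and 3.00 in Pax7 cells, in log2 units like all later changes without a unit. Its Neo libraries held 0.07 and 0.07 FPKM, so it reached the 0.1 FPKM needed for testing through its Pax7 libraries alone. Of 5 genes of other pituitary hormones Prl and Fshb were at 0 in every library and Lhb was the highest, at 1.06 to 3.18 scaled exon reads and 0.22 to 0.37 FPKM. Of 4 fibroblast markers Dcn and Col1a2 were at or near 0. Col1a1 fell by 0.43 at 96 h (limma, adjusted p = 0.014), and the 4 summed to 17.5 to 23.6 scaled exon reads at 96 h, against 23.5 to 32.0 at 0 h. Of 3 immune markers Cd68 was higher in Pax7 cells, with 0.33 and 0.43 FPKM against 0.17 and 0.17 FPKM in Neo cells, while Ptprc was at 0 in both. The 3 summed to 0.33 to 0.44 FPKM in Pax7 cells and 0.18 FPKM in Neo cells, and the part of fibroblast and immune markers in the results was not tested.

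A gene is called here where its adjusted p-value is under 0.05 in limma, with Benjamini-Hochberg adjustment over all genes tested in that table. Of the 70 genes, 49 passed the low-value filter in both tables and 11 passed in the ER-Pax7 table only. The other 10 passed in neither, namely Adcy2, Adcy4, Adcy8, Adcy10, Akap4, Akap6, Creb5, Pde3a, Pde4c and Pde7b, and of these Adcy4 and Creb5 were above 0 in no library. For 20 genes the tables list different RefSeq transcripts. Among these are Crem, Pde4b, Pde7a, Pde9a, Pde10a, Pkib, Rapgef3 and Rapgef4, whose values in the systems may come from different parts of the gene.

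In uninduced ER-Pax7 cells 66 of the genes were above 0, with levels per kilobase of exon from 0.0026 scaled exon reads for Akap6 upward. Prkar1a, a type I regulatory subunit gene of protein kinase A, was the highest at 2202 ± 97.5 scaled exon reads per kb (mean ± SD, n = 3 here and below). The catalytic subunit gene Prkacb followed at 494 ± 19, the inhibitor gene Pkig at 484 ± 15.8, the phosphodiesterase gene Pde3b at 397 ± 16.2 and the membrane-bound factor gene Creb3 at 393 ± 9.41 scaled exon reads per kb. The SDs of Prkacb and Pkig overlapped, as did those of Pde3b and Creb3, while Pkig and Pde3b lay apart by more than theirs. Adcy9 was the highest adenylyl cyclase gene at 141 ± 4.32 scaled exon reads per kb, ahead of Adcy1 at 73.4 ± 1.15, Adcy6 at 47.4 ± 1.44 and Adcy5 at 34 ± 0.918. Of the other cyclase genes none exceeded the 2.19 ± 0.211 scaled exon reads per kb of Adcy3. Within the regulatory subunits Prkar2b stood at 221 ± 4.34, Prkar2a at 92.3 ± 4.02 and Prkar1b at 47.8 ± 1.33 scaled exon reads per kb, each apart from the next by more than the SDs. These lengths are those of 1 transcript per gene in the deposited table.

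**Figure D1:**
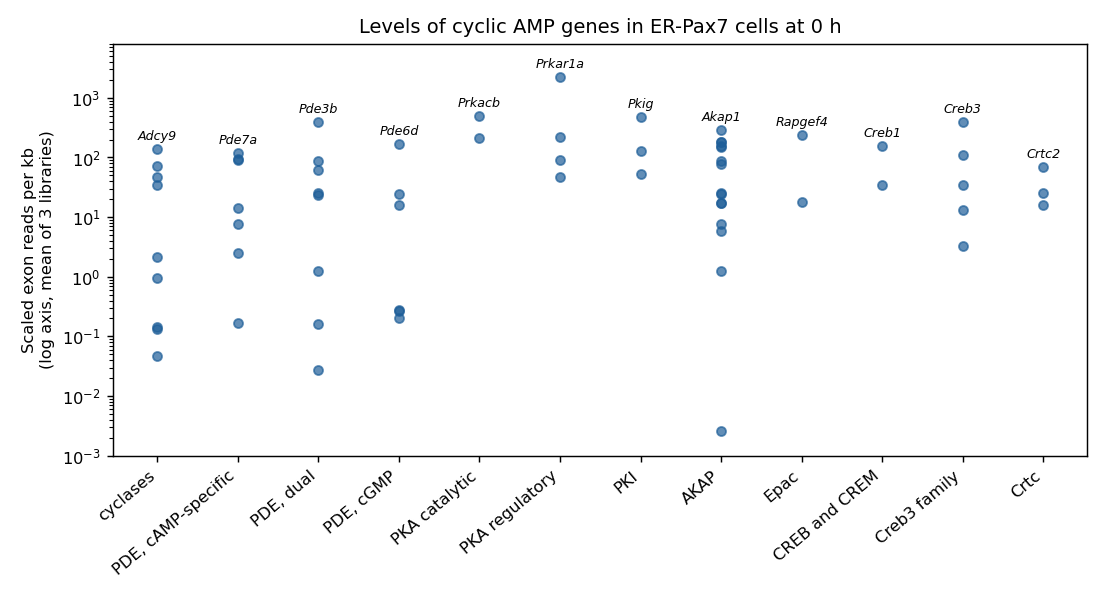
Mean scaled exon reads per kb of exon (vertical log axis) of the 66 cyclic AMP genes above 0 in uninduced ER-Pax7 cells, by pathway step on the horizontal axis. Each point is a gene (mean of 3 libraries), the top gene of each step is named, and Prkar1a stands above all others.

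At 12 h of 4-hydroxytamoxifen 11 of the 60 tested cyclic AMP genes were called against 0 h, beside 6.49% of all genes tested. Of these 8 were higher and 3 lower, beside 2.79% and 3.71% of all genes, and groups did not overlap for 21 of the 60, beside 20.3%. At 24 h the count was 14, beside 13.5% of all genes, with 9 higher and 5 lower, beside 5.47% and 8.07%, and 25 without overlap, beside 28%. At 96 h it reached 35, beside 33.7% of all genes, with 22 higher and 13 lower, beside 16.3% and 17.4%. Groups did not overlap then for 41 genes, beside 45.8% of all. Against 24 h, 20 were called at 96 h, beside 12.7% of all genes, 11 higher and 9 lower, beside 6.16% and 6.54%, with 29 not overlapping, beside 30.7%. A test over all 4 times called 34 of the 60, beside 30.3% of all genes. The median log2 difference at 96 h was 0.088 over the 60 genes and 0.0002 over all genes, and the median size of the difference regardless of sign was 0.19 over the 60 and 0.12 over all genes.

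In Pax7 cells 26 of the 49 tested genes were called against Neo cells, beside 36.8% of all genes. Of these 20 were higher and 6 lower, beside 18.6% and 18.2% of all genes, and groups did not overlap for 40 of the 49, beside 73.9%. The median log2 difference was 0.11 over the 49 genes and 0.0071 over all genes. Without TMM, the factors that centre each library on the bulk of its genes, the split was 20 higher and 4 lower for these genes and 67.7% higher among all genes called, against 50.5% with the factors.

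Most of these differences were small. At 96 h 2 genes differed at least 2-fold, Pde2a upward and Pde9a downward, and Creb3l1 stood just short of that; at 12 h, at 24 h and in Pax7 cells Pde2a alone did so among the called genes. These folds include the pseudocount, which in Pax7 cells shrinks those of low genes, Pde9a and Pde2a among them. With each library left out in turn, 10 of the 11 calls at 12 h, 10 of the 14 at 24 h, 26 of the 35 at 96 h and 11 of the 20 between 24 and 96 h held throughout. Of the 26 calls in Pax7 cells, 9 held throughout: Pde2a, Creb3l2, Prkar1a, Akap8l, Crem, Rapgef4, Pde4b, Creb1 and Pde7a. The number of calls in Pax7 cells was 9 without Neo library 1, 13 without Neo library 2, 9 without Pax7 library 1 and 11 without Pax7 library 2. Without 24 h library 2 the 20 calls between 24 and 96 h became 13. At a false discovery rate under 0.05, the authors' deposited results call 7, 9 and 25 of the genes at 12, 24 and 96 h against 0 h. All of these are called here too. For Pax7 against Neo the authors call none, where the fit used here calls 26. The authors' log2 differences there do not follow the FPKM tested here. They give 0 for Adcy1, with 0.9 and 0.82 FPKM in Pax7 cells against 0.63 and 0.62 FPKM in Neo cells. Rapgef4, Creb3l2 and Pde2a share the same 3.17. The authors' count and the 26 are therefore not counts from the same values, and the reason for the gap was not tested.

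**Figure D2:**
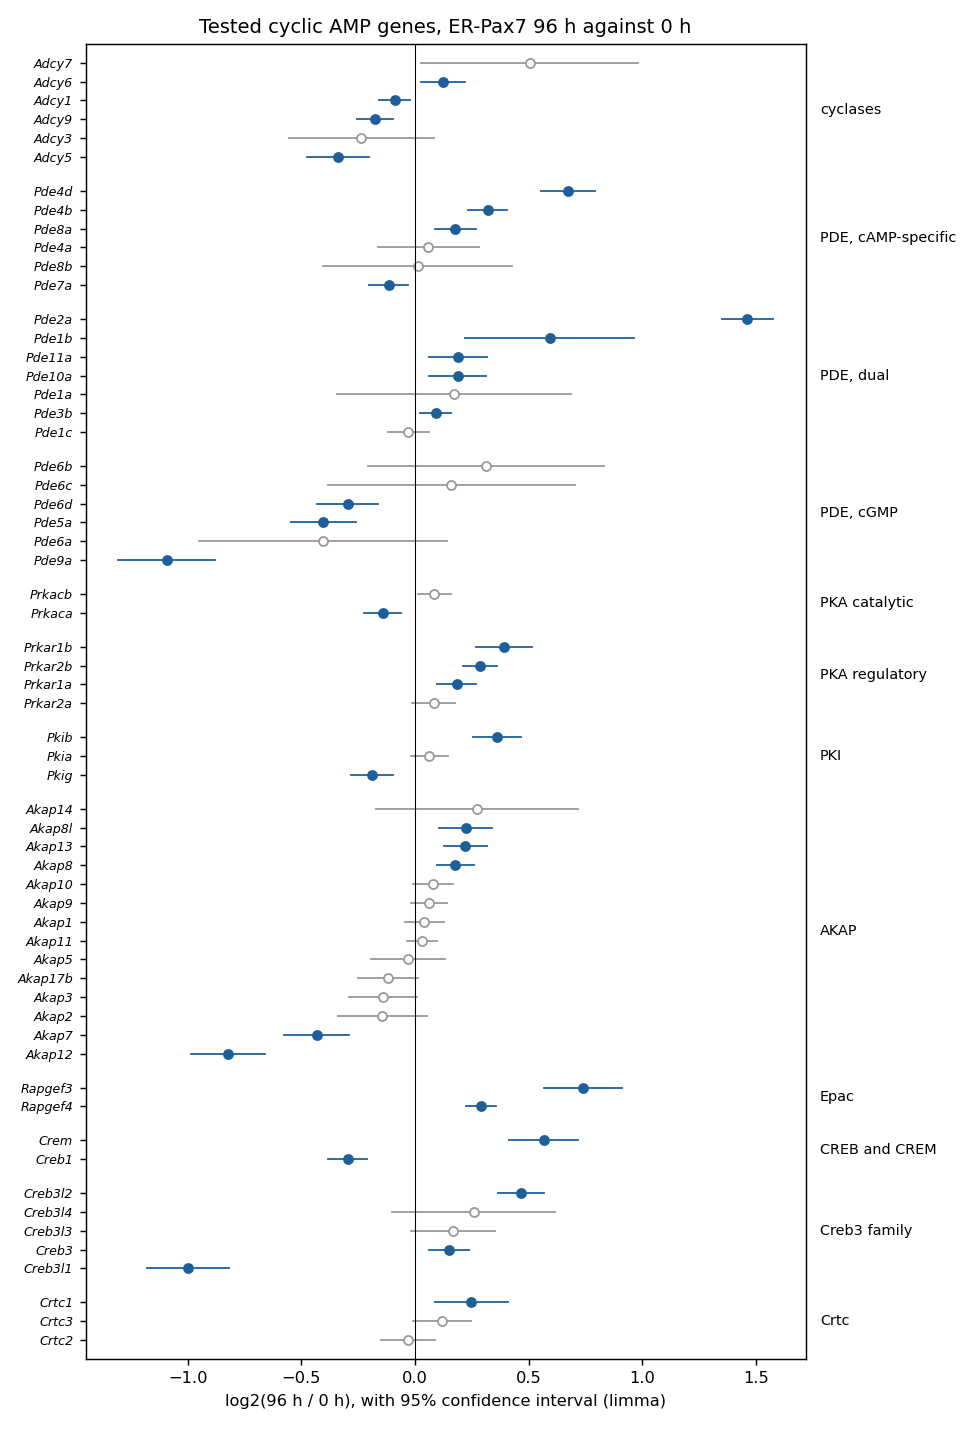
Log2 difference of 96 h over 0 h (horizontal axis) for the 60 tested cyclic AMP genes, grouped by pathway step down the page. Points are limma estimates with 95% confidence intervals, filled where called (35 genes), with Pde2a farthest right at 1.46 and Pde9a farthest left at −1.09.

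The phosphodiesterases that hydrolyse both cyclic AMP and cyclic GMP held the largest rise of the set. Pde2a encodes the phosphodiesterase whose breakdown of cyclic AMP is stimulated by cyclic GMP, and its transcript lies on the forward strand of chromosome 7 (mm10, 101451252 to 101512829). It read 105, 107 and 97.9 scaled exon reads at 0 h, 213, 218 and 195 at 12 h, 258, 244 and 249 at 24 h and 291, 293 and 277 at 96 h. Every library after induction stood above every 0 h library, and each later time stood above the one before without overlap. The log2 differences from 0 h were 1.00 at 12 h, 1.25 at 24 h and 1.46 at 96 h (SE 0.053; limma, adjusted p = 5.32e-11, 9.62e-13 and 1.79e-14), the last a 2.76-fold difference. From 24 to 96 h the gain was 0.21 (limma, adjusted p = 0.0115), a call lost without 24 h library 2 or 96 h library 2 (adjusted p up to 0.0582). In the other system Pde2a measured 0.89 and 0.93 FPKM in the Pax7 libraries, against 0.29 and 0.29 FPKM in the Neo libraries. The groups did not overlap, with a log2 difference of 1.31 (SE 0.059; limma, adjusted p = 0.0021).

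Promoter sequences are shown for 4 genes of the pathway that changed in both systems, to set the best-known DNA element of the pathway beside them. They come from RefSeq (GRCm38.p6), run 5′ to 3′ on the gene's own strand from 250 bases before to 50 bases after the start site, and share their start site with the transcript in the deposited tables. Capitals mark TGACGTCA, the full cyclic AMP response element, in Prkar1a, and its core TGACG in Rapgef3 and Creb3l2; both strands were searched, and every full element also holds the core. In the Prkar1a sequence shorter copies of the core are left in lower case.
Pde2a, chr7:101451002-101451301, forward strand: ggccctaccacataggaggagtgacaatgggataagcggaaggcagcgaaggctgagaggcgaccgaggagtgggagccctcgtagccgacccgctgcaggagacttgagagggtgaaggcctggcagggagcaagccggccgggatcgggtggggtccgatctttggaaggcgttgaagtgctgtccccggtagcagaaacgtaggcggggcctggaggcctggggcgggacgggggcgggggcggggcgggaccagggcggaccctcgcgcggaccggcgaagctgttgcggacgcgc
Prkar1a, chr11:109650699-109650998, forward strand: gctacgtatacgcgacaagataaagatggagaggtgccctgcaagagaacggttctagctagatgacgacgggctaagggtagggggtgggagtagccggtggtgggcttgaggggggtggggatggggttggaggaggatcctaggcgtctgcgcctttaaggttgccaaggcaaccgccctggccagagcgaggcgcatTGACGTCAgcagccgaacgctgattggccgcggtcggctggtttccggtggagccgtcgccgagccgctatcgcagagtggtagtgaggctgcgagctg
Rapgef3, chr15:97767617-97767916, reverse strand: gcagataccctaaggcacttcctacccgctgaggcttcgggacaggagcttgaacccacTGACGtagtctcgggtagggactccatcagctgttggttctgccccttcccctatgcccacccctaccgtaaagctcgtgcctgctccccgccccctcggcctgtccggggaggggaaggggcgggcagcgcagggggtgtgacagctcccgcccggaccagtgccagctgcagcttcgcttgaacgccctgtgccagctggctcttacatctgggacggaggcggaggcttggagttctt
Creb3l2, chr6:37442099-37442398, reverse strand: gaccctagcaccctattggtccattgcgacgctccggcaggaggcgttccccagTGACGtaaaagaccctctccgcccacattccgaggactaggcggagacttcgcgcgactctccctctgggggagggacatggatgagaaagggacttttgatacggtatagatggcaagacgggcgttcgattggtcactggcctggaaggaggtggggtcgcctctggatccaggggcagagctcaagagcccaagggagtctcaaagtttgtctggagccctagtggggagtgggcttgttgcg
The element in Prkar1a begins at −49 from the start site, and the cores in Rapgef3 and Creb3l2 at −191 and −196. This Pde2a window holds neither. The full element is in 1.79% of the 32851 promoters listed for all genes, and the core in 20.8%. A promoter was listed for 56 of the 70 genes, with 105 promoters between them. Of these 105, 3 hold the full element (2.86%), in Prkar1a and Creb5, and 24 hold the core (22.9%), among them another promoter of Pde2a. The palindrome TAAT, any 2 bases, ATTA, which the homeodomain of Pax7 is known to bind as a pair, is in 0.39% of all promoters and in none of the 105. Such matches describe letters in these windows only.

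Of the 7 dual-substrate genes tested, Pde2a included, 5 were higher at 96 h and none was lower, beside 16.3% and 17.4% of all genes. Pde1c, a calcium and calmodulin stimulated phosphodiesterase gene, read 752, 758 and 805 scaled exon reads at 0 h, 919.8, 930.2 and 907 at 12 h, 839, 944 and 932 at 24 h and 755, 778 and 745 at 96 h. Its 12 and 24 h libraries all lay above the 0 h libraries, and the 96 h libraries overlapped those at 0 h. It was higher by 0.25 at 12 h and by 0.21 at 24 h on the log2 scale, and at 96 h it was lower than at 24 h by 0.24 (SE 0.042; limma, adjusted p = 0.000549, 0.00157 and 0.000682). Pde1c measured 0.31 and 0.28 FPKM in the Pax7 libraries, against 0.21 and 0.21 FPKM in the Neo libraries, without overlap (log2 difference 0.30; limma, adjusted p = 0.0284). Pde10a, a dual enzyme best known from striatal neurons, read 178, 175 and 186 scaled exon reads at 0 h, 169.6, 197 and 169.8 at 12 h, 192, 197 and 177 at 24 h and 201, 212 and 203 at 96 h. Only its 96 h libraries stood clear of those at 0 h, by 0.19 in log2 units (limma, adjusted p = 0.0194), and the call was lost without 0 h library 2 or 96 h library 2 (adjusted p up to 0.0814). In Pax7 cells Pde10a also rose, with 0.25 and 0.25 FPKM in the Pax7 libraries, against 0.18 and 0.17 FPKM in the Neo libraries (log2 difference 0.30; limma, adjusted p = 0.0267). Pde11a rose by 0.19, Pde3b by 0.091 and Pde1b, a low transcript of 3.17 to 5.01 scaled exon reads at 0 h, by 0.59 on the log2 scale at 96 h. These 3 calls were each lost when certain single libraries were left out (limma, adjusted p up to 0.112, 0.133 and 0.0846), as were the Pax7 calls of Pde1c and Pde10a without any 1 of the 4 libraries (up to 0.119 and 0.124).

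Among the phosphodiesterases specific for cyclic AMP, Pde4d and Pde4b rose at 96 h by different courses. Pde4d, from the rolipram-sensitive family that protein kinase A itself activates, read 101, 98.5 and 101 scaled exon reads at 0 h, 128, 137 and 124 at 12 h, 136, 144 and 136 at 24 h and 154, 165 and 163 at 96 h. Each time stood above 0 h without overlap, and 96 h stood above 24 h. The log2 differences from 0 h were 0.36, 0.45 and 0.67 (SE 0.057; limma, adjusted p = 0.000216, 9.85e-06 and 1.15e-08). In FPKM it was 0.11 and 0.11 FPKM in the Pax7 libraries, against 0.08 and 0.08 FPKM in the Neo libraries, a difference of 0.19 on the log2 scale that was not called (limma, adjusted p = 0.116), at levels where 0.01 FPKM is the smallest step. Pde4b, another member of that family, read 362, 388 and 383 scaled exon reads at 0 h, 351, 359.9 and 359 at 12 h, 351, 363 and 377 at 24 h and 479, 484 and 459 at 96 h. Its 12 h libraries lay under those at 0 h without a call, and its 96 h libraries stood above all others. The rise at 96 h was 0.32 against 0 h and 0.39 against 24 h (SE 0.042; limma, adjusted p = 4.48e-06 and 2.16e-06). In Pax7 cells Pde4b was higher too, with 4.04 and 3.61 FPKM in the Pax7 libraries, against 2.6 and 2.58 FPKM in the Neo libraries (log2 difference 0.47, SE 0.048; limma, adjusted p = 0.00713).

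Pde8a and Pde7a, whose enzymes resist rolipram and have high affinity for cyclic AMP, went opposite ways. Pde8a read 247, 260.3 and 245 scaled exon reads at 0 h, 236, 251 and 248 at 12 h, 248, 253 and 244 at 24 h and 283, 287 and 284 at 96 h. Its groups overlapped until 24 h and all 3 libraries at 96 h were higher, by 0.18 against 0 h (limma, adjusted p = 0.00338). With 0.5 and 0.46 FPKM in the Pax7 libraries, against 0.34 and 0.35 FPKM in the Neo libraries, Pde8a was also called higher in Pax7 cells (log2 difference 0.32; limma, adjusted p = 0.0198), though not without any 1 of those libraries (adjusted p up to 0.0854). Pde7a read 719, 760.4 and 774 scaled exon reads at 0 h, 771, 801 and 755 at 12 h, 746, 804 and 806 at 24 h and 682, 714 and 690.1 at 96 h. All 96 h libraries lay under the others, 0.12 below 0 h in log2 units (limma, adjusted p = 0.0327), a call that 4 of the 6 libraries decide (adjusted p up to 0.121). It was lower in Pax7 cells too, with 1.67 and 1.6 FPKM in the Pax7 libraries, against 2 and 1.97 FPKM in the Neo libraries (log2 difference −0.33, SE 0.033; limma, adjusted p = 0.00679). Pde4a and Pde8b were tested and not called at any time.

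The phosphodiesterases specific for cyclic GMP included the deepest fall of the set. At 96 h 3 of 6 tested were lower, Pde9a, Pde5a and Pde6d, and none higher, beside 17.4% and 16.3% of all genes. Pde9a encodes a high-affinity cyclic GMP phosphodiesterase. It read 50.5, 48.9 and 50.4 scaled exon reads at 0 h, 50.7, 40.9 and 40.1 at 12 h, 34.8, 33.7 and 39.5 at 24 h and 25.1, 21.4 and 22.5 at 96 h. At 12 h a single library stayed with those at 0 h, while the 24 h and then the 96 h libraries each lay lower without overlap. The log2 differences were −0.19 at 12 h, not called, −0.48 at 24 h and −1.09 at 96 h (SE 0.10; limma, adjusted p = 0.358, 0.00223 and 4.53e-08). In the other system Pde9a measured 0.04 and 0.04 FPKM in the Pax7 libraries, against 0.11 and 0.1 FPKM in the Neo libraries (log2 difference −0.58; limma, adjusted p = 0.0118). That call was lost without either Pax7 library (adjusted p up to 0.0606), and the gene passed the filter through its Neo libraries alone, as Pde4d did through its Pax7 libraries. Pde5a, the target of sildenafil, read 104, 106 and 106 scaled exon reads at 0 h, 109, 112 and 104 at 12 h, 98.9, 110.2 and 101 at 24 h and 85.5, 82.2 and 72.2 at 96 h. Its libraries overlapped until 24 h and were all lower at 96 h, by 0.40 against 0 h (SE 0.068; limma, adjusted p = 0.000103); it was not tested in the Pax7 comparison. Pde6d, grouped here by its symbol but known as a prenyl-binding chaperone subunit, fell by 0.30 at 96 h (limma, adjusted p = 0.00126). Pde6a, Pde6b and Pde6c stayed at 2.1 scaled exon reads or less in every library and were not called.

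The adenylyl cyclases, which make cyclic AMP, split in direction and moved little. At 96 h Adcy6 was called higher, Adcy1, Adcy5 and Adcy9 lower, and the 2 remaining tested genes, Adcy3 and Adcy7, were not called. Adcy5, a calcium-inhibited cyclase gene, read 169, 176 and 168 scaled exon reads at 0 h, 163, 168 and 152 at 12 h, 157, 158 and 151 at 24 h and 149, 139 and 119.8 at 96 h. As deposited, each time lay below 0 h without overlap, narrowly at 12 h, where the groups overlapped after TMM. Against 0 h only 96 h was called, at −0.34 (SE 0.066; limma, adjusted p = 0.00042). Likewise Adcy5 was lower in Pax7 cells, with 0.09 and 0.1 FPKM in the Pax7 libraries, against 0.15 and 0.14 FPKM in the Neo libraries (log2 difference −0.37; limma, adjusted p = 0.0296). Adcy6, its closest relative, read 279, 280.5 and 294 scaled exon reads at 0 h, 312, 302 and 308 at 12 h, 317, 294 and 278 at 24 h and 320.3, 307 and 307 at 96 h. The 96 h libraries stood above those at 0 h by 0.12 (limma, adjusted p = 0.0453), close to the threshold and lost without any 1 of 5 libraries (adjusted p up to 0.145). Pax7 cells had more Adcy6, with 2.38 and 2.29 FPKM in the Pax7 libraries, against 1.91 and 1.95 FPKM in the Neo libraries (log2 difference 0.19; limma, adjusted p = 0.0302).

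Adcy1, the cyclase gene that calcium and calmodulin stimulate, was the only gene of the set called in opposite directions by Pax7 against Neo and by 96 h against 0 h. It read 892, 914 and 888 scaled exon reads at 0 h, 1016, 1016 and 1015 at 12 h, 1002, 1000.4 and 949 at 24 h and 868, 846 and 827 at 96 h. The 12 and 24 h libraries stood above all 0 h libraries and the 96 h libraries below them. It rose by 0.17 at 12 h and 0.11 at 24 h and fell by 0.090 at 96 h (SE 0.033; limma, adjusted p = 0.00179, 0.0263 and 0.0423). The 24 h and 96 h calls were lost without some single libraries (adjusted p up to 0.101 and 0.175), but the drop of 0.20 between 24 and 96 h was not (adjusted p at most 0.00351). Its FPKM were 0.9 and 0.82 FPKM in the Pax7 libraries, against 0.63 and 0.62 FPKM in the Neo libraries, a rise of 0.34 (SE 0.047; limma, adjusted p = 0.0126). Without a single library the Pax7 calls of Adcy1, Adcy5 and Adcy6 could be lost (limma, adjusted p up to 0.0558, 0.12 and 0.112). Adcy9, the highest cyclase gene per kb, fell by 0.12 at 24 h and 0.18 at 96 h (limma, adjusted p = 0.0322 and 0.00103), the 24 h call being lost without any 1 of 3 libraries, and differed by −0.004 between Pax7 and Neo cells.

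**Figure D3:**
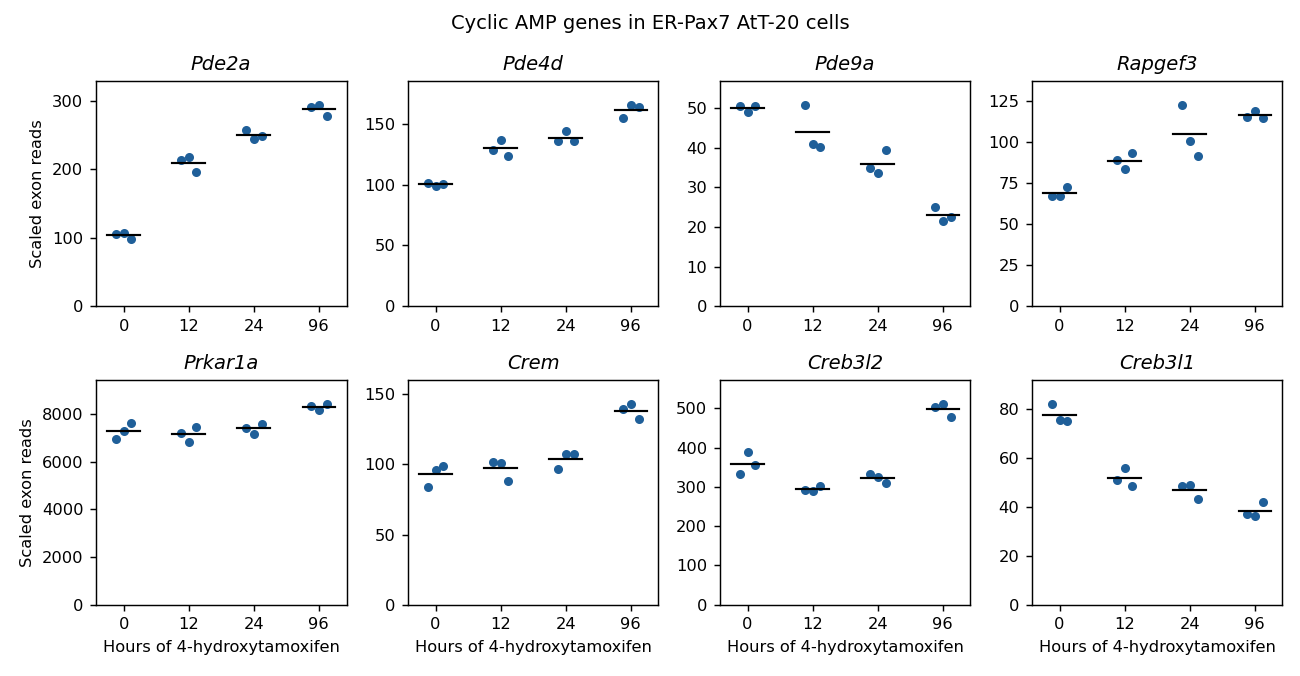
Scaled exon reads (vertical axes, from 0) of 8 cyclic AMP genes in ER-Pax7 cells by hours of 4-hydroxytamoxifen. Points are the 3 libraries of a time and short lines their mean: Pde2a, Pde4d and Rapgef3 were higher from 12 h, Prkar1a, Crem and Creb3l2 higher at 96 h, and Pde9a and Creb3l1 lower at 24 and 96 h.

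In protein kinase A most regulatory subunit genes rose and the catalytic ones moved little. At 96 h 3 of 4 regulatory genes were higher and none lower, beside 16.3% and 17.4% of all genes. Of the catalytic genes Prkaca fell and Prkacb was not called. Prkar1a, the most abundant transcript of the set per kb (mm10, chromosome 11, 109650949 to 109669648, forward strand), read 6959, 7299 and 7605 scaled exon reads at 0 h, 7206, 6821 and 7438 at 12 h, 7415, 7172 and 7586 at 24 h and 8315, 8165 and 8425 at 96 h. Its libraries overlapped through 24 h and all 3 at 96 h lay above them. The rise at 96 h was 0.18 against 0 h and 0.18 against 24 h (SE 0.041; limma, adjusted p = 0.00145 and 0.00501). In the Pax7 comparison it rose too, with 65 and 64.1 FPKM in the Pax7 libraries, against 38.7 and 36.3 FPKM in the Neo libraries (log2 difference 0.71, SE 0.033; limma, adjusted p = 0.00218). Prkar1a was 1.64-fold higher in Pax7 cells, beside 1.14-fold at 96 h, values that come from gene bodies and from exons.

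Prkar1b, the other type I regulatory subunit gene, read 124, 129 and 122 scaled exon reads at 0 h, 152, 159 and 145 at 12 h, 172, 160.5 and 155 at 24 h and 168, 156 and 173 at 96 h. All later libraries stood above those at 0 h. The log2 differences were 0.27, 0.35 and 0.39 at 12, 24 and 96 h (SE 0.059; limma, adjusted p = 0.00494, 0.000236 and 2.63e-05). Pax7 cells had 0.19 and 0.19 FPKM in the Pax7 libraries, against 0.12 and 0.11 FPKM in the Neo libraries (log2 difference 0.39; limma, adjusted p = 0.0189), a call lost without any 1 library (adjusted p up to 0.0978). Prkar2b, a type II regulatory subunit gene, read 738, 727 and 756 scaled exon reads at 0 h, 953, 965 and 915 at 12 h, 979, 999 and 977 at 24 h and 875, 919.5 and 926 at 96 h. As deposited, its 24 h libraries were the highest, though after TMM they overlapped those at 12 h. The 96 h libraries lay below those at 24 h, overlapped those at 12 h and stood above those at 0 h. The log2 differences from 0 h were 0.35, 0.39 and 0.29 (SE 0.036; limma, adjusted p = 1.11e-06, 9.19e-08 and 2.43e-06), and the difference in Pax7 cells, 0.11, was not called (limma, adjusted p = 0.0913). Prkar2a was called in no comparison.

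Of the catalytic genes, Prkaca fell by 0.14 at 96 h (limma, adjusted p = 0.00795), a call lost without 96 h library 1 (adjusted p = 0.0558). Prkacb differed by 0.085 at 96 h (95% confidence interval 0.013 to 0.16; limma, adjusted p = 0.0641). In Pax7 cells neither was called, with log2 differences of −0.11 for Prkaca and 0.10 for Prkacb. Prkacb was nonetheless called over the 4 times together (limma, adjusted p = 0.0257), with its lowest values at 12 h, a call lost without any 1 of 3 libraries.

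The inhibitor peptides, which bind the free catalytic subunits, had calls in both directions at 96 h. Pkib read 276, 294 and 285 scaled exon reads at 0 h, 314, 304 and 326 at 12 h, 343, 301 and 337 at 24 h and 350.2, 376 and 375 at 96 h. All libraries after 0 h stood above those at 0 h, by 0.14 at 12 h, not called, 0.18 at 24 h and 0.36 at 96 h in log2 units (SE 0.051; limma, adjusted p = 0.0219 and 1.31e-05); the 24 h call was lost without any 1 of 4 libraries (adjusted p up to 0.117). With 0.53 and 0.48 FPKM in the Pax7 libraries, against 0.35 and 0.34 FPKM in the Neo libraries, Pkib was higher in Pax7 cells as well (log2 difference 0.38; limma, adjusted p = 0.0126, and up to 0.0587 with a library left out). Pkig, the most abundant inhibitor gene per kb, fell by 0.19 at 96 h (limma, adjusted p = 0.0021) and was not called in Pax7 cells. Pkia rose in Pax7 cells by 0.29 (limma, adjusted p = 0.0151, and up to 0.0694 with a library left out) and was not called at any time of the series.

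The anchoring protein genes had 3 of 14 tested genes higher and 2 lower at 96 h, beside 16.3% and 17.4% of all genes. Akap12, which encodes the scaffold gravin, held the steepest fall among them. It read 114, 106 and 108 scaled exon reads at 0 h, 78.4, 74.2 and 82.8 at 12 h, 71.1, 80.2 and 69 at 24 h and 64, 55.3 and 65.9 at 96 h. Every later library lay below every 0 h library, and those at 96 h below those at 24 h. Its log2 differences from 0 h were −0.48, −0.59 and −0.82 (SE 0.079; limma, adjusted p = 0.000365, 1.86e-05 and 6.54e-08). With 0.04 and 0.04 FPKM in the Pax7 libraries, against 0.08 and 0.08 FPKM in the Neo libraries, it was under the filter and not tested there. Akap7, a membrane anchor linked to calcium channels, read 78.3, 83.5 and 78.7 scaled exon reads at 0 h, 77.7, 74.5 and 73.8 at 12 h, 72.4, 71.5 and 79.2 at 24 h and 60.2, 57.8 and 60 at 96 h. Its 96 h libraries lay under all others, by 0.43 against 0 h (SE 0.068; limma, adjusted p = 4.78e-05), while its Pax7 difference of −0.070 was not called.

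Akap8l and Akap13 rose in both systems. Akap8l, a nuclear relative of Akap8, read 373, 374 and 362 scaled exon reads at 0 h, 394, 370.1 and 418 at 12 h, 467, 407 and 384 at 24 h and 432, 428 and 439.5 at 96 h. Its 24 h and 96 h libraries lay above those at 0 h, and 96 h was called at 0.22 (SE 0.055; limma, adjusted p = 0.00361). In the other cells it was 2.34 and 2.43 FPKM in the Pax7 libraries, against 1.39 and 1.36 FPKM in the Neo libraries, 1.61-fold higher (log2 difference 0.68, SE 0.049; limma, adjusted p = 0.00425). Akap13, a further anchoring protein gene, read 916, 966 and 1014 scaled exon reads at 0 h, 902, 990.5 and 1006 at 12 h, 1073, 1058 and 971 at 24 h and 1104, 1147 and 1137 at 96 h. The 96 h libraries were the highest, by 0.22 against 0 h (limma, adjusted p = 0.000803). Pax7 cells had 0.49 and 0.44 FPKM in the Pax7 libraries, against 0.33 and 0.32 FPKM in the Neo libraries (log2 difference 0.35; limma, adjusted p = 0.0162, and up to 0.0703 with a library left out). Akap8 rose by 0.18 at 96 h (limma, adjusted p = 0.00145), and Akap9 and Akap11 rose in Pax7 cells, by 0.36 and 0.22, calls also lost with a library left out (limma, adjusted p up to 0.0677 and 0.0827).

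Both exchange factor genes, Rapgef3 and Rapgef4, whose products Epac1 and Epac2 carry the cyclic AMP signal to the small GTPase Rap without protein kinase A, rose in every comparison against a control. Rapgef3 read 67.3, 66.8 and 72.9 scaled exon reads at 0 h, 88.8, 83.3 and 93.2 at 12 h, 122, 101 and 91.3 at 24 h and 115, 119 and 115 at 96 h. All later libraries lay above those at 0 h, with the widest spread at 24 h, where library 1 stood above all libraries of 96 h. The log2 differences from 0 h were 0.35, 0.57 and 0.74 (SE 0.082; limma, adjusted p = 0.0102, 4.74e-05 and 5.62e-07), and the 12 h call was lost without 0 h library 2 or 12 h library 3 (adjusted p up to 0.0563). In the other cells Rapgef3 measured 0.49 and 0.47 FPKM in the Pax7 libraries, against 0.37 and 0.35 FPKM in the Neo libraries (log2 difference 0.28; limma, adjusted p = 0.0191, and up to 0.0873 with a library left out). Rapgef4 read 985, 1002 and 955 scaled exon reads at 0 h, 1095, 1085 and 1091 at 12 h, 1176, 1166 and 1192 at 24 h and 1206, 1216 and 1189 at 96 h. Its groups at 12, 24 and 96 h also cleared 0 h without overlap, with log2 differences of 0.15, 0.25 and 0.29 (SE 0.032; limma, adjusted p = 0.00442, 1.16e-05 and 4.64e-07). For Rapgef4 the Pax7 comparison gave 0.67 and 0.63 FPKM in the Pax7 libraries, against 0.39 and 0.38 FPKM in the Neo libraries (log2 difference 0.57, SE 0.045; limma, adjusted p = 0.00498).

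**Figure D4:**
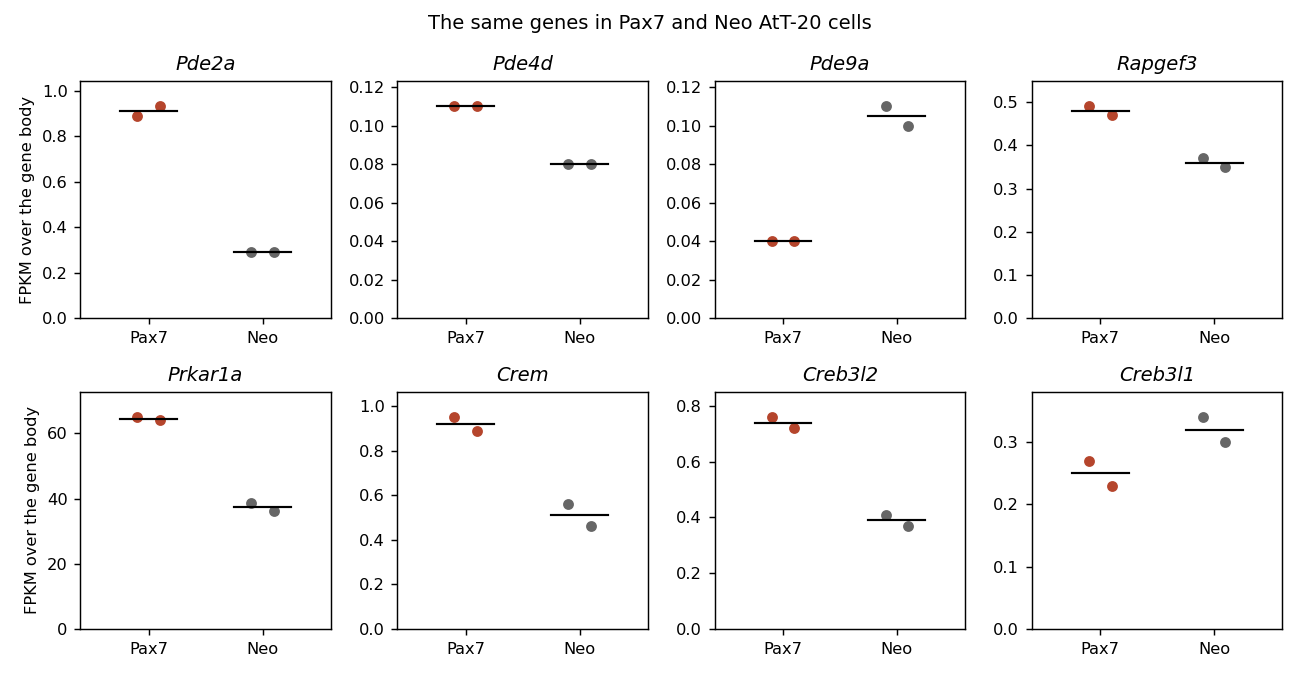
FPKM over the gene body (vertical axes, from 0) of the same 8 cyclic AMP genes in the 2 Pax7 and 2 Neo libraries. Points are libraries and short lines their mean: Pde9a and Creb3l1 lay lower in Pax7 cells and the other 6 genes higher, the difference of Pde4d not being called.

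The nuclear factors at the end of the pathway moved in opposite directions. Creb1, the activator that protein kinase A phosphorylates, was lower in both systems, and Crem, whose gene makes activators as well as the inducible repressor ICER, was higher. Creb1 read 1247, 1322 and 1369.5 scaled exon reads at 0 h, 1218, 1242 and 1269 at 12 h, 1189, 1256 and 1293 at 24 h and 1034, 1081 and 1103 at 96 h. The 96 h libraries lay under all others, by 0.30 against 0 h and 0.20 against 24 h (SE 0.041; limma, adjusted p = 9.22e-06 and 0.002). In Pax7 cells Creb1 fell too, with 1.27 and 1.2 FPKM in the Pax7 libraries, against 1.52 and 1.5 FPKM in the Neo libraries (log2 difference −0.34, SE 0.036; limma, adjusted p = 0.00774). Crem read 84, 96.2 and 98.6 scaled exon reads at 0 h, 102, 101 and 88.5 at 12 h, 96.7, 107 and 107 at 24 h and 139, 143 and 132 at 96 h. The first 3 times overlapped and the 96 h libraries stood clear above them. Its rise at 96 h was 0.57 against 0 h and 0.42 against 24 h (SE 0.074; limma, adjusted p = 4.53e-06 and 0.000557). The Pax7 comparison gave 0.95 and 0.89 FPKM in the Pax7 libraries, against 0.56 and 0.46 FPKM in the Neo libraries (log2 difference 0.68, SE 0.081; limma, adjusted p = 0.00918). Neither table separates the transcripts of Crem, so activators and ICER cannot be told apart. The ER-Pax7 values count exons of a Crem transcript spanning 3266354 to 3327591 on chromosome 18. The FPKM cover a different transcript with a gene body of 15393 bases, so the rises may come from different parts of the gene. Creb5 was listed at 0 in every library.

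The Creb3 factors sit in the endoplasmic reticulum membrane until they are cleaved. Despite the name they are not known chiefly as targets of cyclic AMP, and among the transcription factors of the set Creb3l1 moved most at 96 h and Creb3l2 in Pax7 cells. Creb3l1 read 81.9, 75.3 and 74.7 scaled exon reads at 0 h, 50.9, 55.9 and 48.4 at 12 h, 48.3, 48.7 and 43.1 at 24 h and 37.1, 36.1 and 41.9 at 96 h. Every later library lay below every 0 h library, and the groups of 96 h and 24 h did not overlap. Its log2 differences from 0 h were −0.58, −0.73 and −0.9998 (SE 0.087; limma, adjusted p = 0.000133, 3.69e-06 and 1.61e-08). In Pax7 cells it fell as well, with 0.27 and 0.23 FPKM in the Pax7 libraries, against 0.34 and 0.3 FPKM in the Neo libraries (log2 difference −0.32; limma, adjusted p = 0.0422), and it was not called without any 1 of those libraries (adjusted p up to 0.147).

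Creb3l2, which is involved in secretory pathway capacity, turned round within the time course. It read 332, 389 and 357 scaled exon reads at 0 h, 293, 290.4 and 301 at 12 h, 332, 326 and 311 at 24 h and 504, 512 and 478 at 96 h. The 12 h libraries lay below those at 0 h, the highest 24 h library just under the lowest 0 h one, and all 96 h libraries far above both. It fell by 0.29 at 12 h and by 0.17 at 24 h and rose by 0.47 at 96 h (SE 0.049; limma, adjusted p = 0.000536, 0.023 and 2.45e-07). The 24 h call was lost without 0 h library 2, 24 h library 2 or 24 h library 3 (adjusted p up to 0.161), whereas the rise of 0.64 between 24 and 96 h held without each (adjusted p at most 1.26e-06). In Pax7 cells it stood at 0.76 and 0.72 FPKM in the Pax7 libraries, against 0.41 and 0.37 FPKM in the Neo libraries (log2 difference 0.72, SE 0.052; limma, adjusted p = 0.00425). Creb3 itself read 633, 603 and 615 scaled exon reads at 0 h, 632, 567 and 630.0 at 12 h, 625, 592 and 628 at 24 h and 702, 673 and 686 at 96 h. Its groups overlapped until 24 h, and it was higher in all 96 h libraries, by 0.15 (limma, adjusted p = 0.0103). With 17.6 and 17.2 FPKM in the Pax7 libraries, against 14.3 and 14.9 FPKM in the Neo libraries, its Pax7 call was near the threshold (log2 difference 0.18; limma, adjusted p = 0.0494) and was lost without any 1 of 3 libraries (adjusted p up to 0.171). Creb3l3 fell in Pax7 cells by 0.35 (limma, adjusted p = 0.0295, and up to 0.117 with a library left out) and was not called in the time course.

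The Crtc genes encode coactivators that enter the nucleus and join CREB when cyclic AMP rises. Crtc1 rose by 0.25 at 96 h (limma, adjusted p = 0.0166), a call lost without 0 h library 3 or 96 h library 3 (adjusted p up to 0.0865). Its Pax7 difference of 0.33 was not called (limma, adjusted p = 0.07). Crtc2 and Crtc3 were called in no comparison, with 96 h differences of −0.032 (95% confidence interval −0.15 to 0.086) and 0.12 (−0.011 to 0.25).

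By their calls in the time course the genes fell into courses. The share of all genes in each course was not computed, so whether these counts are particular to the set was not tested. Pde2a, Pde4d, Prkar1b, Prkar2b, Rapgef3 and Rapgef4 rose at each of 12, 24 and 96 h, and Akap12 and Creb3l1 fell at each, 8 genes in all. For 12 genes the only calls were at 96 h, against 0 h and against 24 h alike: Akap13, Creb3, Crem, Pde11a, Pde4b, Pde8a and Prkar1a rose, and Akap7, Creb1, Pde5a, Pde7a and Pkig fell. Adcy1, Pde1c and Creb3l2 were called one way at 12 and 24 h and the other way between 24 and 96 h. Across systems, 21 of the 49 genes tested in both were called both at 96 h and in Pax7 cells, beside 18% of all genes tested in both. Of these 15 were higher in both and 5 lower in both, beside 8.01% and 7.77% of all genes, and Adcy1 was called in opposite directions, beside 2.18%. The 15 higher in both were Pde2a, Pde4b, Pde8a, Pde10a, Prkar1a, Prkar1b, Pkib, Akap8l, Akap13, Rapgef3, Rapgef4, Crem, Creb3, Creb3l2 and Adcy6, and the 5 lower were Pde7a, Pde9a, Adcy5, Creb1 and Creb3l1. Pde9a is in this count through a Pax7 comparison that it entered only because its Neo libraries passed the filter. Another 11 were called at 96 h and tested but not called in Pax7 cells, 3 were called at 96 h and not tested there, and 5 were called in Pax7 cells and not at 96 h. A call in a single system does not show that the systems differ, and that difference was not tested.

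**Figure D5:**
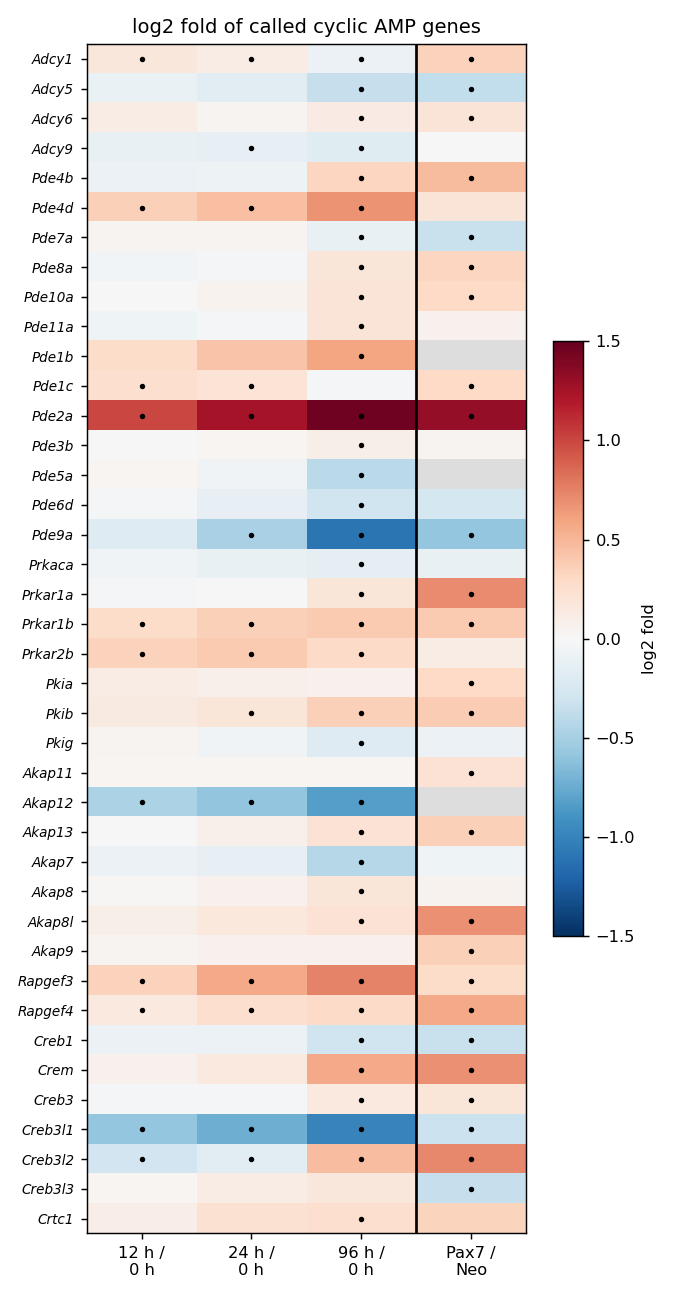
Log2 differences of the 40 cyclic AMP genes called in at least 1 comparison shown, by gene down the page. The first 3 columns are 12, 24 and 96 h over 0 h in ER-Pax7 cells and the last is Pax7 over Neo; red is higher, blue lower, grey not tested, and dots mark calls.

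Upstream of the cyclases, 11 of 19 tested receptor and G protein genes were called at 96 h, 4 higher and 7 lower, beside 33.7% of all genes. In Pax7 cells 9 of 16 were called, 5 higher and 4 lower, beside 36.8% of all genes. Crhr1, the receptor for corticotropin-releasing hormone, read 21.5, 16.3 and 20.8 scaled exon reads at 0 h, 11.7, 12.1 and 9.2 at 12 h, 8.9, 10.2 and 10.9 at 24 h and 13.9, 13.7 and 11.8 at 96 h. All later libraries lay below those at 0 h, and 96 h was lower by 0.54 (limma, adjusted p = 0.00579). Crhr1 was lower in Pax7 cells too, at 0.05 and 0.05 FPKM, against 0.11 and 0.12 FPKM in Neo cells (log2 difference −0.55; limma, adjusted p = 0.0142). It entered that comparison only because its Neo libraries passed the filter, at levels where 0.01 FPKM is the smallest step. The somatostatin receptor genes, whose products lower cyclic AMP through inhibitory G proteins, split: Sstr5 and Sstr3 fell by 1.30 and 0.97 at 96 h and Sstr2 rose by 0.50 (limma, adjusted p = 1.51e-14, 3.52e-10 and 1.68e-07). Sstr5 was also lower in Pax7 cells, at 2.7 and 2.81 FPKM, against 6.57 and 6.61 FPKM in Neo cells, and Sstr2 rose there by 0.25, while Sstr3 was not called (log2 difference −0.039; limma, adjusted p = 0.744). The inhibitory G protein genes Gnai2 and Gnai3 fell at 96 h by 0.38 and 0.14. Gnas, the stimulatory G protein gene, was called only at 24 h, lower by 0.13 (limma, adjusted p = 0.0282).

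Of 15 tested transcripts known to answer cyclic AMP, 3 were lower and none higher at 12 h, beside 3.71% and 2.79% of all genes. At 24 h 6 were lower and none higher, beside 8.07% and 5.47%, and at 96 h 4 were lower and 2 higher, beside 17.4% and 16.3%. Against 24 h, 1 was lower and 3 were higher at 96 h, beside 6.54% and 6.16%. In Pax7 cells 3 of 14 were lower and 2 higher, beside 18.2% and 18.6%. Egr1, among the lower ones, passed the filter through its Neo libraries alone (0.11 and 0.1 FPKM, against 0.05 and 0.06 FPKM in Pax7 cells). Stc1, a secreted glycoprotein hormone gene, fell by 0.41 at 96 h and rose by 1.21 in Pax7 cells (limma, adjusted p = 5.26e-08 and 0.0012). Nr4a2, an orphan nuclear receptor gene, was lower than at 0 h at each time, by 0.56, 0.61 and 0.44, and at 96 h it was higher than at 24 h by 0.17. The 2 higher at 96 h were Dusp1 and Gem, while Ppargc1a and Bdnf were lower too. In Pax7 cells Dusp1 was also higher and Bdnf lower. Of 10 tested CREB partners and kinases, 1 was higher at 96 h, Crebbp, and 1 lower, Sik1, beside 16.3% and 17.4% of all genes. Sik1, a CREB-induced kinase that keeps Crtc proteins out of the nucleus, fell by 0.24 (limma, adjusted p = 0.000193). Of the ion channels that cyclic nucleotides gate and the Popeye proteins, 5 of 7 tested were lower at 96 h and none higher, beside 17.4% and 16.3% of all genes. In Pax7 cells 2 of 6 were higher and 2 lower, beside 18.6% and 18.2%. Of the higher ones Cnga3 passed the filter through its Pax7 libraries alone (0.13 and 0.13 FPKM, against 0.01 and 0.01 FPKM in Neo cells). Of the lower ones Cnga4 passed through its Neo libraries alone (0.12 and 0.12 FPKM, against 0.03 and 0.06 FPKM in Pax7 cells). Gucy2c, a receptor that makes cyclic GMP, fell by 0.61, 0.87 and 0.91 at 12, 24 and 96 h (limma, adjusted p = 1.2e-08 at 96 h).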

How the data were processed

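AtT-20 RNA without ribosomal RNA was read as paired ends, per the labels' protocols. Reads were mapped to mm10 (GRCm38); the submitters' processing notes name TopHat, HOMER and edgeR and no versions. For ER-Pax7 cells the authors counted reads over RefSeq exons, with no strand setting, and deposited them as signal values scaled to a common library total, per the file headers. For Pax7 and Neo cells the authors deposited FPKM over gene bodies, per the file headers. The authors' deposited log2 folds and false discovery rates (adjusted p-values) served only for comparison.

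Because the deposited values are not raw counts, limma 3.58.1 with an intensity trend (R 4.3.3) replaced the planned edgeR test. Genes reaching 1 scaled read in at least 3 libraries (15188) or 0.1 FPKM in at least 2 (13393) were tested on log2(value / TMM factor + 1 or 0.1), with Benjamini-Hochberg adjustment at 0.05 and TMM from edgeR 4.0.16. This scale understates the change of low genes. Printed library values are as deposited; counts of groups without overlap use values after TMM. The depth of the FPKM libraries was not computed. From the ER-Pax7 values whole reads were recovered (100% whole within 0.2 reads) and tested with edgeR and DESeq2 1.42.0 as alternatives. The fits were tested on simulated data. Values in every library are given for genes called in Pax7 against Neo and in at least 1 comparison with 0 h, and for the 6 largest called changes of each comparison without overlap. The genes and lists were chosen with earlier results of these data known. Reads of overlapping genes cannot be told apart: 4 of the 40 called genes overlap another, Creb3 with Gba2, and Pde2a, Pde4d and Pde5a with small or low transcripts. Other settings tried were no filter, no TMM, smaller and larger pseudocounts, a replicate block, only the groups compared, limma without trend and each library left out.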

Additional observations from a re-analysis of the deposited data

Results flagged for a closer look

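Adcy1 and Creb3l2 were called in opposite directions by the 2 systems at some times. Every Adcy1 value at 96 h, and every Creb3l2 value at 12 and 24 h, lay below every value at 0 h, whereas all values of both genes in Pax7 cells lay above those in Neo cells. Adcy1 was lower at 96 h than at 0 h, with a log2 difference of −0.090, and higher in Pax7 cells than in Neo cells by 0.34. Creb3l2 differed by −0.29 at 12 h and by −0.17 at 24 h, beside 0.72 in Pax7 cells. The difference between the systems was not tested, and the tables count exons in one system and gene bodies in the other.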

How the results depend on the processing

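In every alternative run that gave a value, the called cyclic AMP genes kept their direction. With each library left out in turn, the number called ranged from 9 to 13 in Pax7 against Neo (26 with all libraries), from 10 to 11 at 12 h, from 11 to 13 at 24 h, from 28 to 32 at 96 h, from 13 to 20 between 24 and 96 h and from 28 to 34 over the 4 times. Over all genes it ranged from 2002 to 2928 in Pax7 against Neo (4923 with all libraries) and from 1268 to 1731 between 24 and 96 h (1929). With 1 library left in a group, that library is assumed to vary like the other group. Without TMM, 2600 genes were higher and 1241 lower in Pax7 cells, against 2486 and 2437 with it, while the cyclic AMP genes split 20 to 4, against 20 to 6. A replicate block gave 18 called cyclic AMP genes in Pax7 against Neo, 12 at 12 h, 18 at 24 h and 36 at 96 h. Over all genes the block gave 5755 calls at 96 h (5124 without it) and 3404 in Pax7 against Neo (4923 without it). Deviations of same-numbered ER-Pax7 libraries correlated at −0.08 to 0.14 over 18 pairs (median 0.043). Those of differently numbered libraries correlated at −0.13 to 0.098 over 36 pairs (median −0.020). Whether the replicate numbers pair the libraries was not tested. On recovered reads edgeR and DESeq2 called 35 and 36 cyclic AMP genes at 96 h. Rounding to 0.01 FPKM limits low genes such as Pde9a and Pde4d in the Pax7 comparison.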
